A study of Homo sapiens with 60 samples.

Results

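The 28 genes described here encode enzymes of cholesterol synthesis, proteins that control that synthesis, and proteins that move or store sterols inside the cell. They were picked by a list of names, a rule that uses no measured value, although the list was drawn up with earlier results of these data known. All 28 were found among the 60675 gene identifiers of the deposited table. Not every gene of the pathway is covered. Messenger RNA was sequenced from A549, an established human lung carcinoma line, 24 h after treatment. The 60 libraries fall into 25 groups: a DMSO vehicle group of 3 libraries and 8 herbal extracts, each at a low (20 µg/mL), a medium (100 µg/mL) and a high dose (500 µg/mL). The water extracts of the formulas Sibjeondaebo-tang and Palmul-tang have 3 and 2 libraries per dose. The ethanol extracts of the herbs Poria Cocos, Atractylodis Rhizoma, Glycyrrhizae Radix and Panax Ginseng have 3 libraries per dose, and those of Angelicae Gigantis Radix and Paeoniae Radix have 1. The vehicle is labelled 0.1% DMSO, while the series' design text gives 2%, and that text describes lower doses for extracts whose IC20 is under the top dose, where the library labels give the same 3 doses for all. The labels do not say that replicate libraries came from separate cultures, so p-values measure the spread between these libraries only.

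Cells make cholesterol from acetyl-CoA through HMG-CoA, mevalonate, isoprenyl diphosphates, squalene and lanosterol. When sterols in the endoplasmic reticulum run low, SCAP escorts the membrane-bound factor SREBP-2, the product of SREBF2, to the Golgi, where it is cut, and the freed fragment switches on genes of the whole pathway. INSIG1 and INSIG2 hold SCAP back when sterols are plentiful, and INSIG1 is itself a target of SREBP-2. Lung epithelial cells also need sterols and fatty acids for membranes and surfactant.

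Short promoter stretches of 4 members are shown because the letters in capitals resemble elements that SREBP-2 is known to bind, and because these members changed with dose in at least 1 extract. Each is read 5′ to 3′ on the plus strand of GRCh38.p14 from RefSeq, with 10 bases on either side. The capitals mark TCACNCNAC or TCACNTGA on either strand.
SREBF2: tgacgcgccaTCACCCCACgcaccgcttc
FDPS: tgcgccatgcTCACACGACggccagcagc
INSIG1: ccgggcaggcTCACGTGAtgcgggcccc
EBP: caaacctaacTCAGGTGAaaatggcgcc
The SREBF2 stretch lies at chr22:41832962-41832990 and its match begins 133 bases before the RefSeq start. The FDPS stretch lies at chr1:155308716-155308744 and its match begins 140 bases before the start. Neither overlaps an exon of its gene in GENCODE 29. The match in the INSIG1 stretch, at chr7:155297812-155297839, begins 56 bases before the start. That in the EBP stretch, at chrX:48521671-48521698, begins 127 bases before it. Both stretches lie within an exon of a GENCODE 29 transcript of the same gene that starts further upstream. The EBP match is on the minus strand, and that of INSIG1 is a palindrome that also contains CACGTG.

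Promoter windows of 300 bases, from 250 before to 50 after a RefSeq start, were found for 25 of the 28 members. TCACNCNAC was in the windows of 3 of these 25 genes (FDPS, HSD17B7 and SREBF2), or 12%, against 3.13% of all genes with a window. Its narrower form TCACNCCAC was in SREBF2 alone among the 25, against 1.39% of all genes. TCACNTGA was in INSIG1 and EBP, 8% of the 25 against 4.65% of all, and CACGTG in INSIG1, LSS, SC5D and SCAP, 16% against 8.77%. CCAAT, the core letters of an NF-Y box, was in 19 of the 25 (76%) against 39.7% of all genes. GGGCGG, the core of a GC box, was in 23 (92%) against 48.3%. All motifs were searched on both strands. The genes compared with were all 27305 with a window, not only the genes tested in these cells. A match is a description of letters, and a missing match says only that these letters are not in the window.

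Library totals ran from 18602484 to 29764358 counts. The third low-dose Poria library had 28101 genes above 0, against 21744 to 23495 in every other library. What this means for its values was not tested. All 28 members were among the 17764 genes that passed the filter on low counts, and the lowest count of a member in any library was 189 (INSIG2). KRT8, an epithelial keratin, was at 2057 to 4509 CPM (counts scaled to a library size of 1e+06). Of blood markers, PTPRC, CD3E and LYZ were at 0 in 53, 54 and 38 of 60 libraries, and CD79A was at 0.04 to 0.55 CPM. Of endothelial markers, CDH5 and VWF were at 0 in 50 and 52, and PECAM1 was at 0.04 to 0.50 CPM. Of fibroblast markers, PDGFRA was at 0 in 19, while COL1A1, COL3A1 and DCN had medians of 2.15, 7.96 and 4.64 CPM. The share of counts on mitochondrial genes was 14.5 to 25.9%. Because the libraries are bulk, fewer cells of a kind and less RNA per cell cannot be told apart in any result below. In GENCODE 29, 13 members share at least 50 exon bases with another gene. CYP51A1 shares 79.4% of its exon bases with a same-strand readthrough gene, GGPS1 shares 37.3% with TBCE, and ACAT2 shares 26.5% with SOD2 and 9.23% with TCP1 on the other strand. Reads of these genes, and of HSD17B7 with its near-identical pseudogene, are less certain. For ACAT2 this depends on how the counting treated strand, which is not stated in the sources used here. The overlaps of CYP51A1 and GGPS1 named here are on the same strand, where strand does not separate the reads.

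The first comparison asks what changed between 20 and 500 µg/mL of one extract, without using the vehicle. Changes are differences in log2 level, high minus low, with the standard error, from the quasi-likelihood test of edgeR, with p-values adjusted by Benjamini-Hochberg over 17764 genes. A gene is said to have risen or fallen only where the adjusted p was under 0.05.

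With Ginseng, 16 of the 28 members rose and none fell. Over all genes tested, 0.552% rose and 0.653% fell, 1.2% in all. The members' median change was 0.23 (log2), against 0.005 for all genes, and 24 of 28 were positive. The rises were small, between 1.13-fold for TMEM97 and 1.29-fold for ACAT2, and they ran through most steps of the pathway. FDPS, which makes farnesyl diphosphate, was at 121, 125 and 121 CPM in the low-dose libraries and 152, 156 and 154 CPM at high dose. The groups were well separated, and the change was 0.33 ± 0.04 (edgeR adjusted p = 6.057e-07). SQLE, squalene epoxidase and a rate-limiting enzyme of the later pathway, was at 164, 157 and 169 CPM at low dose and 205, 201.2 and 204 CPM at high dose. That is a change of 0.32 ± 0.04 (adjusted p = 2.552e-06), again with no overlap. INSIG1 was at 51.1, 53.05 and 54.8 CPM at low dose and 64.6, 65.9 and 66.6 CPM at high dose, a change of 0.31 ± 0.04 (adjusted p = 1.112e-05).

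At the entry to the pathway, both members rose with Ginseng: ACAT2, which joins acetyl-CoA units, by 0.36 ± 0.05, and HMGCS1, which makes HMG-CoA, by 0.24 ± 0.05. None of the 3 mevalonate enzymes passed the test. MVD, the decarboxylase, came closest (0.24, edgeR adjusted p = 0.06258), with MVK at 0.14 and PMVK at -0.07. IDI1, which isomerises isopentenyl diphosphate, rose by 0.28. GGPS1, which draws farnesyl diphosphate toward geranylgeranyl diphosphate instead of sterols, was at -0.21 and did not pass (adjusted p = 0.142). All 3 squalene and lanosterol enzymes rose: FDFT1, squalene synthase, by 0.25, SQLE as above, and LSS, lanosterol synthase, by 0.23.

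Of the 9 enzymes after lanosterol, 6 rose with Ginseng: EBP, a sterol isomerase (0.31), DHCR7, the reductase of the last step (0.31), the demethylating enzymes MSMO1 (0.30), CYP51A1 (0.28) and NSDHL (0.235), and SC5D, a desaturase (0.255). The other three, TM7SF2, LBR and HSD17B7, were at 0.18, 0.03 and 0.16. Among the control genes INSIG1 rose, while INSIG2, SREBF2 and SCAP were at 0.092, 0.075 and -0.024. NPC1, which exports cholesterol from lysosomes, rose by 0.20 and TMEM97, the sigma-2 receptor, by 0.17. STARD4, a soluble sterol carrier, was at 0.19 and SOAT1, which esterifies cholesterol for storage, at -0.06. The count of 16 rested in part on the scaling, the shared estimate of the spread and 1 library: it was 7 with library totals as scaling, 5 in a fit of only these 6 libraries (ACAT2, DHCR7, EBP, FDPS and SQLE), and 10 without the first high-dose library. The direction of the 16 stayed positive in each. With 1 library left out in turn, HMGCS1, IDI1, LSS, MSMO1, NPC1, NSDHL and SC5D each lost the call at least once, and the other 9 did not. Mitochondrial shares overlapped between the doses, 16.05 to 23.06% at low and 18.2 to 20.7% at high dose.

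**Figure D1:**
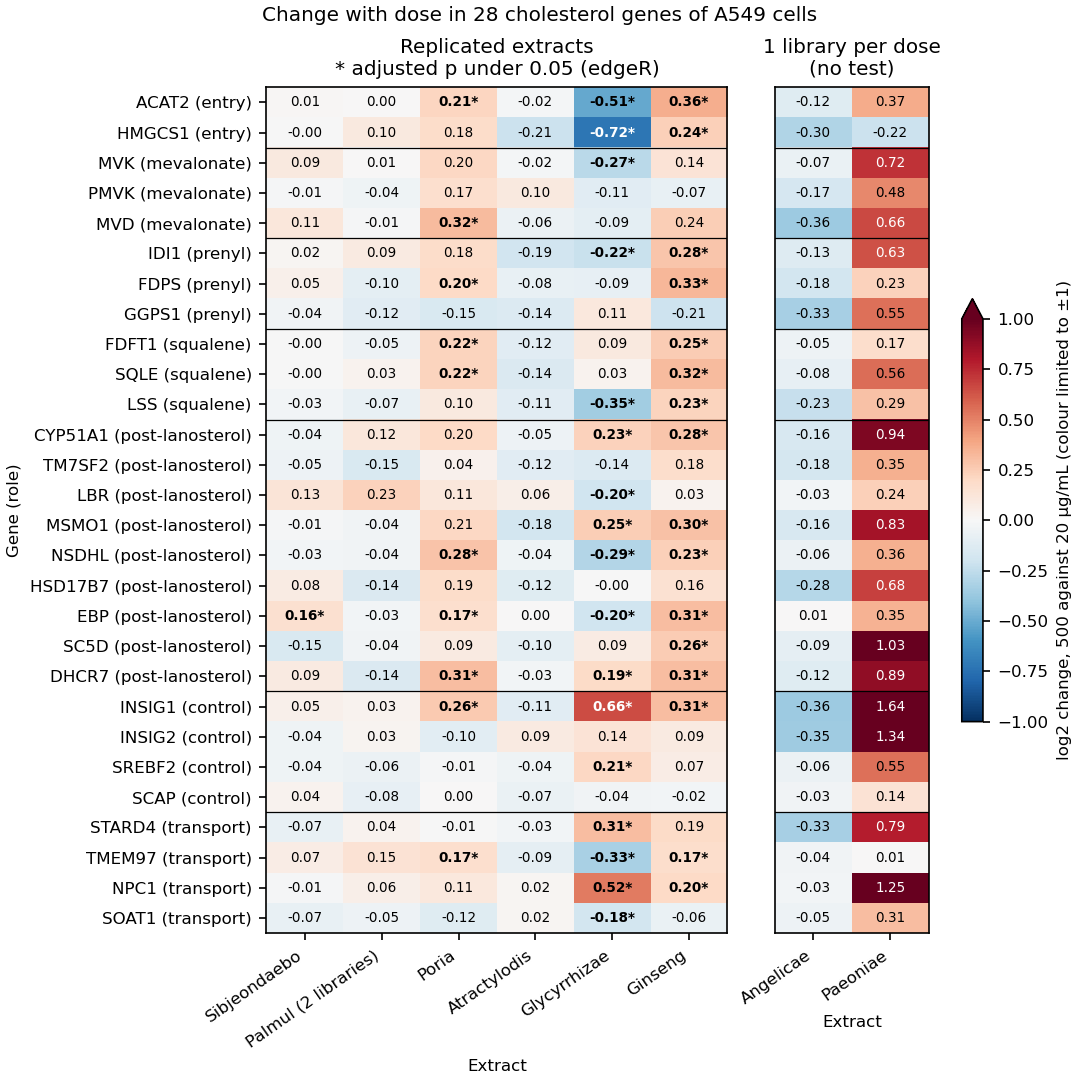
Log2 change from 20 to 500 µg/mL for each of the 28 genes (rows, grouped by role) in each extract (columns), with an asterisk and bold type where the edgeR adjusted p was under 0.05 and colour limited to ±1. The Ginseng column has 16 rises and no fall, the Poria column 10 rises, and the Glycyrrhizae column 7 rises and 10 falls, while the 2 columns on the right come from single libraries and carry no test.

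With Poria, 10 of 28 members rose and none fell, where 1.06% of all genes rose and 0.484% fell (1.55% in all). The median was 0.18 (log2) against 0 for all genes, and 23 of 28 were positive. INSIG1 was at 52.8, 54.7 and 52.8 CPM at low dose and 61.5, 63.0 and 67.8 CPM at high dose, a change of 0.26 ± 0.04 (edgeR adjusted p = 0.000111). DHCR7 was at 126, 141 and 155 CPM at low dose and 173, 177 and 173 CPM at high dose. The low-dose libraries were more spread, yet all lay below the high-dose ones, and the change was 0.31 ± 0.055 (adjusted p = 0.000459). SQLE was at 156, 149 and 152 CPM against 180.3, 176.5 and 176.5 CPM, a change of 0.22 ± 0.04 (adjusted p = 0.000598).

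The other 7 that rose with Poria were spread over the pathway: ACAT2 (0.21), MVD (0.315), FDPS (0.20), FDFT1 (0.22), NSDHL (0.28), EBP (0.17) and TMEM97 (0.17). HMGCS1 was at 0.18 (adjusted p = 0.05335) and CYP51A1 at 0.20 (adjusted p = 0.05705), just short of the threshold. SREBF2, SCAP and STARD4 were within 0.01 of 0. Of the 10 genes that rose with Poria, 9 (90%) were among the 16 that rose with Ginseng, or 56.2% of the Ginseng list, and MVD was the exception. The Poria count was 5 with library totals as scaling (DHCR7, FDFT1, INSIG1, NSDHL and SQLE) and 6 without the filter on low counts. By DESeq2 it was 13, where 348 of all genes were called, against 275 by edgeR. It was 9 without the third low-dose library, the one with the most genes above 0. With 1 library left out in turn it was 7 to 10, where ACAT2, EBP, MVD or TMEM97 could lose the call.

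With Glycyrrhizae the members divided: 7 rose and 10 fell. This extract moved many genes, with 18.5% of all tested genes higher and 18.4% lower, so that 17 of 28 called members compares with 37% of all genes. The members' median was -0.06 (log2), against 0.002 for all genes. INSIG1 was at 51.3, 51.3 and 52.5 CPM at low dose and 84.9, 80.7 and 78.9 CPM at high dose, a change of 0.66 ± 0.04 or 1.58-fold (edgeR adjusted p = 5.6e-18). HMGCS1 went the other way, from 193, 204 and 192 CPM to 124, 116.5 and 116 CPM, a change of -0.725 ± 0.05 or 0.605-fold (adjusted p = 7.921e-16). NPC1 went from 33.1, 35.1 and 34.5 CPM to 49.97, 47.8 and 49.5 CPM, a change of 0.52 ± 0.05 (adjusted p = 1.767e-12). None of the 3 had overlapping groups.

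Genes at the entry of the pathway fell with Glycyrrhizae, and some at its end rose. ACAT2 fell by 0.51 ± 0.055, from 36.5, 37.8 and 35.5 CPM to 25.1, 25.6 and 26.4 CPM. MVK, mevalonate kinase, fell by 0.27, IDI1 fell by 0.22 and LSS fell by 0.35, while FDPS, FDFT1 and SQLE did not pass (-0.085, 0.094 and 0.033). After lanosterol, CYP51A1 (0.23), MSMO1 (0.25) and DHCR7 (0.19) rose, and NSDHL (-0.29), EBP (-0.20) and LBR (-0.20) fell. Of the control genes, SREBF2 rose by 0.21 ± 0.04 along with INSIG1, and INSIG2 and SCAP did not pass (0.14 and -0.04). In transport, STARD4 rose by 0.31, TMEM97 fell by 0.33 and SOAT1 fell by 0.18. Without 1 library in turn, the count was 15 to 19, and of the 17 only LBR and SOAT1 lost the call in any of these fits. Mitochondrial shares were 16.3 to 21.5% at low and 19.2 to 22.8% at high dose.

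**Figure D2:**
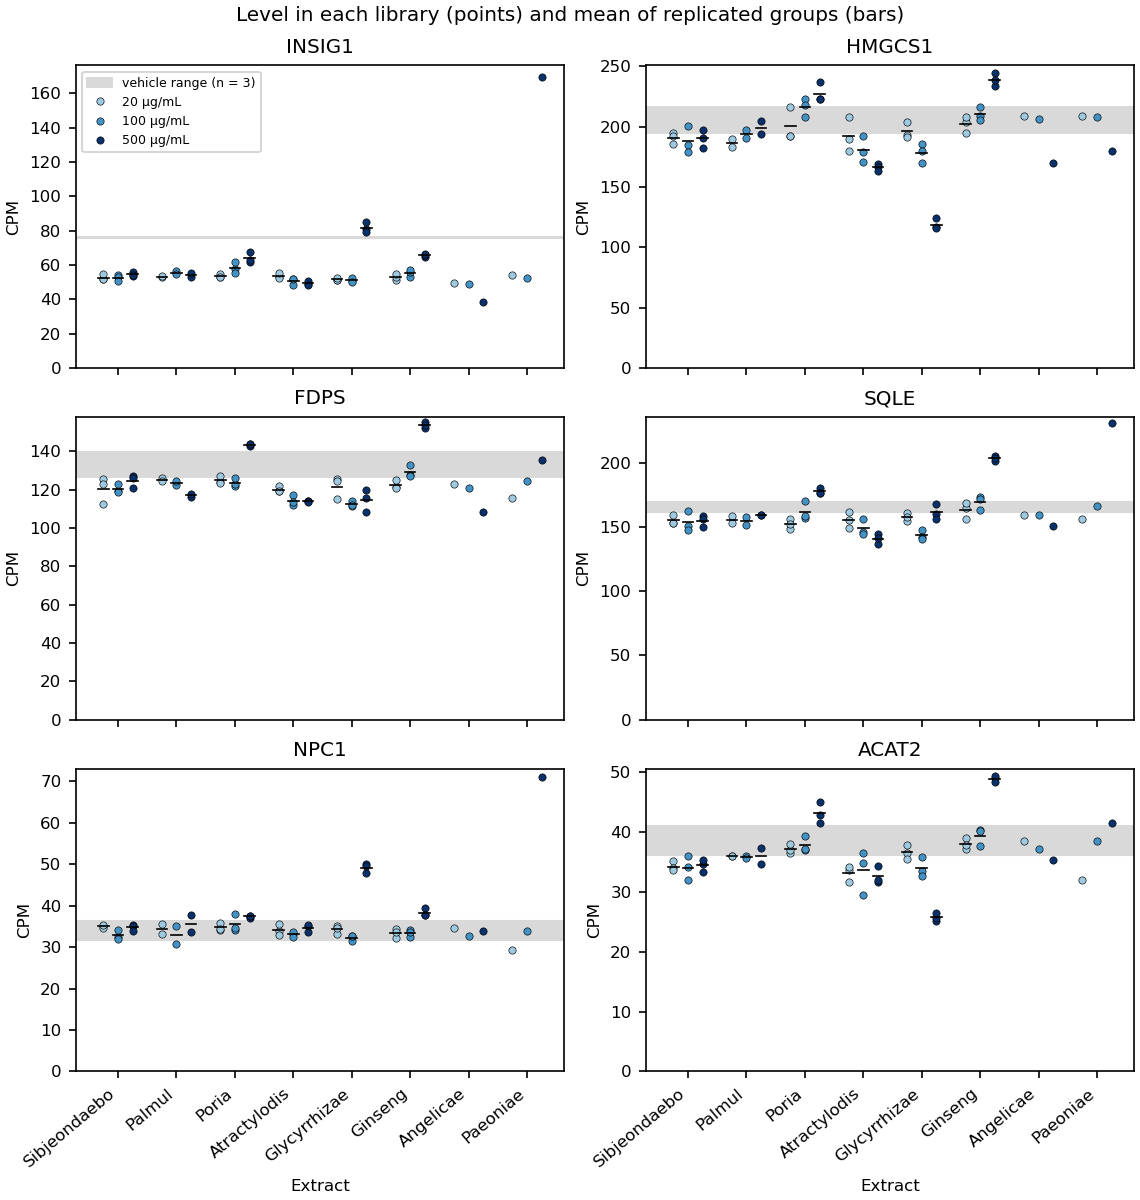
CPM of INSIG1, HMGCS1, FDPS, SQLE, NPC1 and ACAT2 in every library (points, darker with dose), with the mean of each replicated group as a bar and the range of the 3 vehicle libraries as a grey band. For HMGCS1 and ACAT2 the 3 lowest libraries are those of Glycyrrhizae at high dose, while INSIG1 is below the vehicle band in every 20 µg/mL library.

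With the water formulas and Atractylodis, the shares of members called were near or below those of all genes. With Sibjeondaebo-tang, 1 of 28 rose and none fell, where 2.35% of all genes rose and 1.44% fell (3.78% in all). That gene was EBP, at 84.5, 85.5 and 81.0 CPM at low dose and 98.0, 87.2 and 95.7 CPM at high dose (0.16 ± 0.05, edgeR adjusted p = 0.03129). It no longer passed with library totals as scaling, without the filter on low counts, in a fit of only the compared groups, or without any 1 of 5 of its 6 libraries. The next in order of adjusted p did not pass. SC5D was at 25.8, 27.9 and 28.4 CPM and then 24.95, 24.7 and 24.4 CPM (-0.15, adjusted p = 0.2151), and LBR at 74.4, 71.15 and 76.2 CPM and then 74.2, 83.8 and 84.9 CPM (0.13, adjusted p = 0.2389).

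With Palmul-tang, 0 of 28 passed edgeR's test, where 1.29% of all genes rose and 0.794% fell. At an unadjusted p under 0.05 there were 4 members, and the share of all genes at that cutoff was not counted. DESeq2 called 2, LBR and TMEM97, both higher, and a fit of only the compared groups called LBR. Over all genes DESeq2 called 432, where edgeR called 370. With 2 libraries per dose the median standard error of a member was 0.069, against 0.056 with 3, and the 95% intervals of members reached from -0.37 to 0.37.

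With Atractylodis, 0 of 28 passed, where 0.113% of all genes rose and 0.0957% fell. Of the 28 changes 22 were negative, with a median of -0.06 against 0.001 for all genes, where 8774 of 17764 were negative. At an unadjusted p under 0.05 there were 9 members, and the share of all genes at that cutoff was not counted. HMGCS1 came closest, at 208, 189.6 and 179.6 CPM at low dose and 169, 166 and 163 CPM at high dose (-0.21 ± 0.05, edgeR adjusted p = 0.07275). DESeq2 and a replicate block each called 2 members lower, HMGCS1 and SQLE. HMGCS1 passed without the third low-dose library or without the filter on low counts. Over all genes DESeq2 called 67, where edgeR called 37.

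At 100 against 20 µg/mL, 0 of 28 members passed edgeR's test in any of the 6 replicated extracts. Over all genes, 0.0788% were called with Sibjeondaebo-tang (0.0281% lower), 0.788% with Glycyrrhizae (0.608% lower) and 0% with each of the others. Members with an unadjusted p under 0.05 numbered 0, 2, 5, 0, 8 and 2 for Sibjeondaebo-tang, Palmul-tang, Poria, Atractylodis, Glycyrrhizae and Ginseng. The share of all genes at that cutoff was not counted. DESeq2 called 1 member, SQLE, lower with Glycyrrhizae, where it called 149 of all genes, and no member elsewhere. SQLE was at 161, 155 and 158 CPM at 20 and 148, 142 and 140.5 CPM at 100 µg/mL of Glycyrrhizae, but at 168, 160.3 and 156 CPM at 500 µg/mL, where it overlapped the low-dose range. Medians at 100 µg/mL were 0.045 with Poria, 0.035 with Ginseng and -0.075 with Glycyrrhizae. In total 6 members passed in no high against low comparison: PMVK, GGPS1, TM7SF2, HSD17B7, INSIG2 and SCAP.

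Extracts that share a set of sample codes were then compared in how they changed with dose, as an interaction in the same edgeR model. Each extract has its own low-dose libraries. Between Glycyrrhizae and Ginseng, 17 of 28 members differed in their dose change, 3 more positive and 14 more negative with Glycyrrhizae, where 9.72% and 11.3% of all genes did so. HMGCS1 differed by -0.96 ± 0.07 (edgeR adjusted p = 1.551e-14): its Ginseng libraries were at 195, 204 and 208 CPM at low and 244, 233 and 238 CPM at high dose, opposite to the Glycyrrhizae values above. ACAT2 differed by -0.87 ± 0.08 (adjusted p = 1.358e-12), its Ginseng values being 37.1, 39.0 and 37.9 CPM at low and 49.0, 49.3 and 48.4 CPM at high dose. TMEM97 differed by -0.50 ± 0.05 (adjusted p = 1.641e-10). It went from 118, 115 and 119.8 CPM to 95.6, 95.1 and 90.7 CPM with Glycyrrhizae and from 118.5, 118 and 120.1 CPM to 136, 136 and 131 CPM with Ginseng.

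The genes more positive with Glycyrrhizae were INSIG1 (0.35), NPC1 (0.32) and GGPS1 (0.32). Among the 16 that rose with Ginseng, 7 fell with Glycyrrhizae (ACAT2, HMGCS1, IDI1, LSS, NSDHL, EBP and TMEM97) and 5 rose (CYP51A1, MSMO1, DHCR7, INSIG1 and NPC1). Those 7 are 43.8% of the Ginseng rises and 70% of the Glycyrrhizae falls. Of all 28 members 57.1% rose with Ginseng and 10 fell with Glycyrrhizae, and the overlap over all genes was not counted. For CYP51A1, MSMO1 and DHCR7 the difference between the extracts did not pass (-0.05, -0.05 and -0.12), and the 95% intervals of members that did not pass lay between -0.415 and 0.33.

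**Figure D3:**
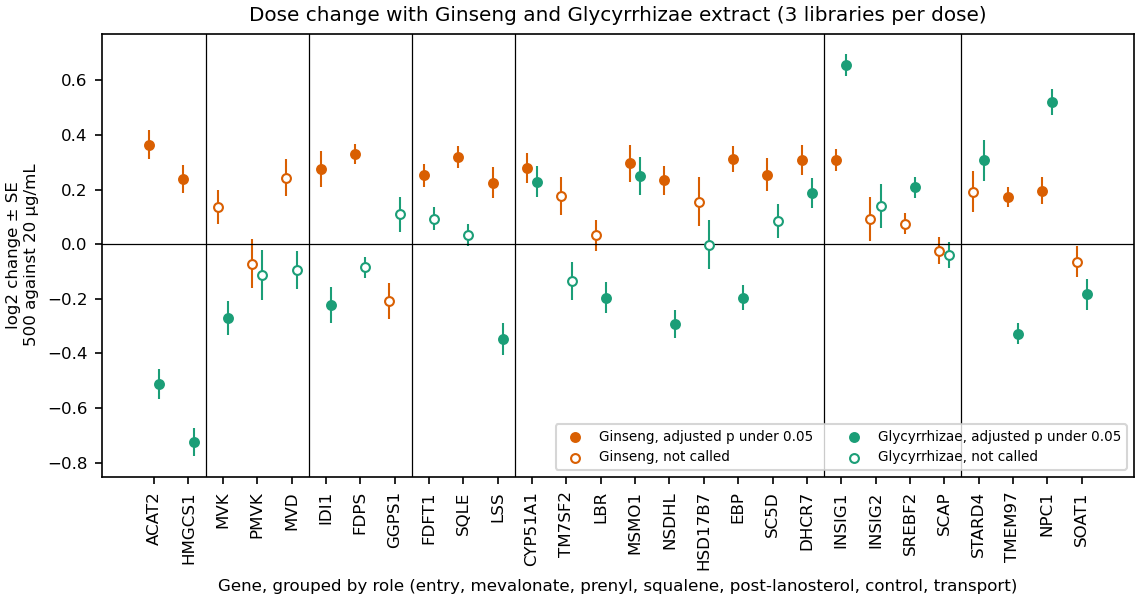
Log2 change from 20 to 500 µg/mL with its standard error for each gene with Ginseng (orange) and Glycyrrhizae (green), filled where the edgeR adjusted p was under 0.05. The extracts part most at ACAT2 and HMGCS1, by 0.87 and 0.96, and lie side by side at CYP51A1 and MSMO1.

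Between Poria and Atractylodis, 6 of 28 members had a more positive dose change with Poria and none a more negative one. Only 0.0563% of all genes were more positive and 0.0169% more negative, 13 genes in total, so that 6 of those 13 are members. SQLE differed by 0.36 ± 0.06 and INSIG1 by 0.38 ± 0.06, both with an edgeR adjusted p of 0.00077. SQLE went from 162, 149 and 155 CPM to 144, 136.5 and 141 CPM with Atractylodis, and INSIG1 from 52.9, 52.2 and 55.4 CPM to 49.15, 50.5 and 48.6 CPM. FDFT1 differed by 0.34 ± 0.06 (adjusted p = 0.003184), from 159.7, 164 and 169.9 CPM to 196, 186 and 193 CPM with Poria and from 168, 159 and 163 CPM to 157, 143 and 153 CPM with Atractylodis. HMGCS1 (0.39), FDPS (0.28) and TMEM97 (0.26) made up the rest. The count was 11 by DESeq2, which called 43 of all genes. It was 1 (SQLE) in a fit of only the compared groups, and 0 with library totals as scaling.

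Between Sibjeondaebo-tang and Palmul-tang, 0 of 28 members and 0% of all genes differed in their dose change by edgeR's test. There were 3 members with an unadjusted p under 0.05, a cutoff at which all genes were not counted, and DESeq2 called no member. The 95% intervals of the members lay between -0.36 and 0.51, with a median standard error of 0.089.

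Levels against the vehicle are kept apart, because the lowest dose already differed from it. All libraries used carry the same batch label, BatchC. The vehicle libraries have a first sample-code field of their own, read here as the set. The labels used here state a DMSO content for the vehicle only, so that of the extract libraries is not known. The extract, the set and the solvent therefore cannot be told apart in these comparisons, all of which share the same 3 vehicle libraries. For the mean of the 6 replicated low-dose groups, 15 members were lower and 5 higher than the vehicle, where 17.1% of all genes were lower and 16.9% higher. INSIG1 was at 75.8, 75.8 and 76.1 CPM in the vehicle and at 51.1 to 55.4 CPM, median 52.8, in the 17 low-dose libraries. All 17 lay below the vehicle range, and the difference was -0.52 ± 0.03 (edgeR adjusted p = 1.771e-16). MVD was at 57.45, 53.3 and 47.2 CPM in the vehicle and 35.4 to 42.5 CPM, median 37.6, at low dose (-0.45 ± 0.05, adjusted p = 5.542e-09). EBP was at 100.5, 99.5 and 91.1 CPM against 77.1 to 85.5 CPM, median 81.0 (-0.26 ± 0.035, adjusted p = 1.617e-07).

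NSDHL, at 64.2, 70.1 and 67.9 CPM in the vehicle, was at 51.1 to 65.1 CPM, median 57.3, at low dose (-0.23 ± 0.04). MVK was at 52.6, 54.7 and 50.1 CPM against 40.1 to 47.2 CPM, median 43.5 (-0.27 ± 0.05). All 17 low-dose libraries were below the vehicle range for INSIG1, MVK, MVD, EBP, DHCR7 and SREBF2. For NSDHL, FDPS, FDFT1 and LSS, 16 of 17 were below it. How many of all genes lay outside their vehicle range in this way was not counted. SOAT1, the esterifying enzyme, and SC5D were above the vehicle range in all 17, by 0.24 ± 0.045 and 0.205 ± 0.051. LBR (0.16), GGPS1 (0.15) and CYP51A1 (0.12) were the other members that were higher. Of these 5, SC5D, LBR, GGPS1 and CYP51A1 lost the call without the first vehicle library, and GGPS1 and CYP51A1 also without the third. HMGCS1, TMEM97 and NPC1, which moved with Glycyrrhizae, did not pass here (-0.09, 0.01 and -0.01). The count of 20 was 11 (4 higher and 7 lower) with library totals as scaling, and 13 without the third vehicle library.

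**Figure D4:**
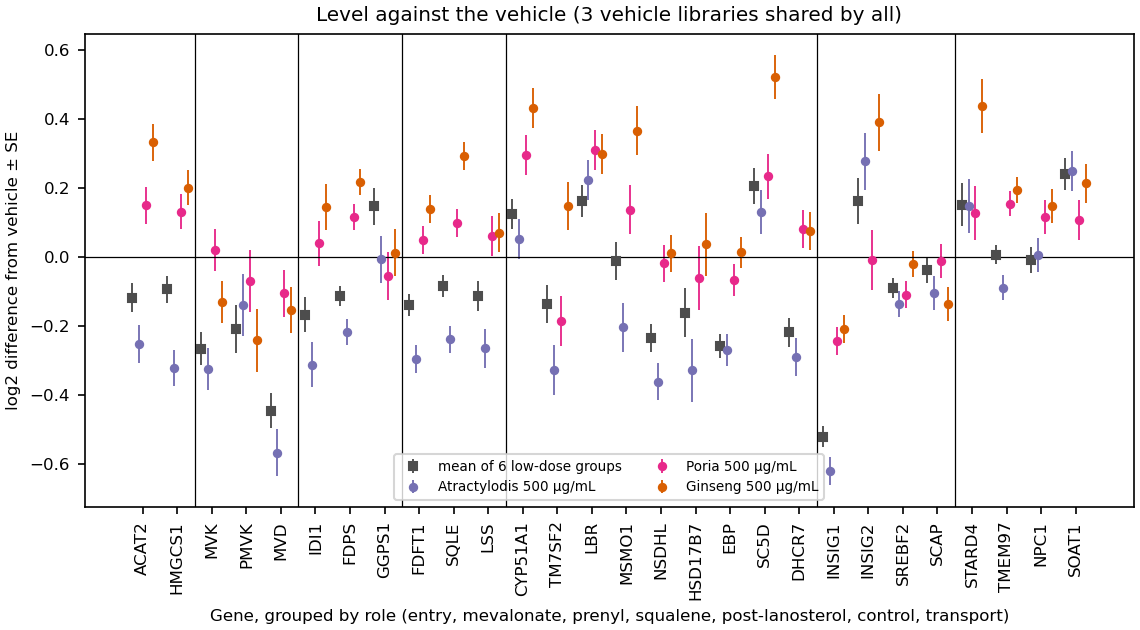
Log2 difference from the 3 vehicle libraries, with its standard error, for the mean of the 6 low-dose groups (grey squares) and for the high doses of Atractylodis, Poria and Ginseng (circles). INSIG1 lies below the vehicle in all 4, at -0.52 for the low doses and -0.62, -0.24 and -0.21 for the high doses, and MVD was at -0.45 for the low doses.

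At 500 µg/mL, INSIG1 remained below the vehicle with 5 of the 6 replicated extracts. The edgeR differences were -0.47 with Sibjeondaebo-tang, -0.49 with Palmul-tang, -0.24 with Poria, -0.62 with Atractylodis and -0.21 with Ginseng. With Glycyrrhizae it was above the vehicle by 0.10 (adjusted p = 0.03285). That call was lost with library totals as scaling, without the filter on low counts, in a fit of only the compared groups, and without the first high-dose, first vehicle or second vehicle library (adjusted p of 0.06083 to 0.1919). With Ginseng, 14 members were above the vehicle and 3 below (INSIG1, PMVK and SCAP), where 15.2% of all genes were above and 13.7% below, and the median was 0.15. SC5D was at 33.0, 33.1 and 35.95 CPM with Ginseng against 22.0, 24.8 and 24.3 CPM in the vehicle (0.52 ± 0.06). STARD4 (0.44), CYP51A1 (0.43), INSIG2 (0.39) and MSMO1 (0.37) followed.

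With Poria, 5 were above and 2 below (9.89% and 6.41% of all genes), the 5 being LBR, CYP51A1, SC5D, TMEM97 and FDPS and the 2 INSIG1 and SREBF2. That count was 4 without the first vehicle library or without the filter on low counts. With Atractylodis, 3 were above (INSIG2, SOAT1 and LBR) and 17 below, among them INSIG1, MVD (-0.57) and NSDHL (-0.36), where 13.8% and 12.3% of all genes were above and below (26.1% in all). With Glycyrrhizae, 9 were above and 13 below, where 23.3% and 23.5% of all genes were. HMGCS1 was at -0.81, MVD at -0.60 and ACAT2 at -0.595, and NPC1 at 0.51 and STARD4 at 0.48.

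With Palmul-tang, 3 were above the vehicle (LBR, CYP51A1 and TMEM97) and 10 below, where 12.2% and 10% of all genes were. That count was 8 with library totals as scaling or without the second high-dose library. With Sibjeondaebo-tang, 2 were above (LBR and TMEM97) and 6 below, where 9.04% and 6.12% of all genes were. It was 5 in a fit of only the compared groups, without the third high-dose library or without the second vehicle library, and 3, all below, with library totals as scaling (INSIG1, MVD and NSDHL).

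Paeoniae and Angelicae had 1 library per dose, so their values have no replicate check and no test. A change is described here as the log2 ratio of CPM plus 1, and counted where the level was at least 25% higher, or lower by the same fold, with a mean of at least 1 CPM. With Paeoniae, 20 of 28 members were higher at 500 than at 20 µg/mL past that fold and none lower, where 25.2% of all genes were higher and 22.9% lower. The median was 0.55 against 0.02 for all genes, and 27 of 28 were positive. INSIG1 was at 53.9, 52.3 and 169.7 CPM at low, medium and high dose (1.64), NPC1 at 29.2, 33.8 and 70.9 CPM (1.252) and INSIG2 at 11.9, 12.1 and 31.7 CPM (1.34). The step in each lay between 100 and 500 µg/mL. All 3 high-dose values were above every other library of the 60 used.

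The remaining members past the fold with Paeoniae were ACAT2 (0.37), MVK (0.72), PMVK (0.48), MVD (0.66), IDI1 (0.63), GGPS1 (0.55), SQLE (0.56), CYP51A1 (0.94), TM7SF2 (0.35), MSMO1 (0.83), NSDHL (0.36), HSD17B7 (0.68), EBP (0.35), SC5D (1.03), DHCR7 (0.89), STARD4 (0.79) and SREBF2 (0.55). HMGCS1, at 209, 208 and 179.6 CPM, was the only negative one (-0.22) and did not pass the fold. The low-dose and high-dose Paeoniae libraries had the highest mitochondrial shares, 25.9% and 24.25%, while the medium-dose one was at 19.8%. The part of this in the values was not tested. With Angelicae, 5 members were lower past the fold and none higher, where 2.65% and 2.1% of all genes were: MVD (-0.36), INSIG1 (-0.36), INSIG2 (-0.35), STARD4 (-0.33) and GGPS1 (-0.33). Its INSIG1 values were 49.6, 49.1 and 38.4 CPM, the last being the lowest of the 60 libraries used.

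The paired genes of the same step were compared per length, as CPM per kb of merged exon. INSIG1 was at 20.8 ± 0.039 and INSIG2 at 2.64 ± 0.29 CPM per kb in the vehicle (SD, n = 3). At high dose INSIG1 was at 22.3 ± 0.84 with Glycyrrhizae and 18 ± 0.27 with Ginseng, and INSIG2 at 3.21 ± 0.23 and 3.46 ± 0.29 (SD, n = 3). INSIG1 was thus the more abundant isogene in each of these groups, and INSIG2 passed the high against low test in no replicated extract. In the single Paeoniae high-dose library the levels were 46.5 and 8.04 CPM per kb. LBR and TM7SF2, which both code for a sterol C14 reductase, were at 13.3 ± 0.42 and 5.49 ± 0.35 CPM per kb in the vehicle (SD, n = 3). With Glycyrrhizae LBR fell while TM7SF2 did not pass (-0.135), and with Ginseng neither passed.

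Related genes were read from 4 lists in the same 6 high against low comparisons. Of 14 genes of fatty acid synthesis and desaturation, 4 rose with Poria and none fell, where 1.06% of all genes rose. Among the 4 were SCD (0.27), the stearoyl-CoA desaturase, and FADS1 (0.31) and FADS2 (0.23), which desaturate polyunsaturated fatty acids. With Ginseng 2 rose, SCD (0.19) and FADS2 (0.19), where 0.552% of all genes rose. With Atractylodis SCD alone rose (0.16), where 0.113% of all genes rose. With Glycyrrhizae 5 rose and 7 fell, where 18.5% and 18.4% of all genes did. SCD (0.49), ACSL3 (0.42) and SREBF1 (0.53) were among these rises. None passed with the water formulas. Of 13 genes of sterol export, storage and lysosomal handling, OSBPL5, an oxysterol-binding relative, fell with every replicated extract but Poria, from -0.18 with Sibjeondaebo-tang to -0.735 with Glycyrrhizae. ABCA1, the cholesterol efflux pump, fell with Ginseng (-0.52). With Glycyrrhizae 5 genes of this list rose, among them NCEH1 (0.23), a cholesteryl ester hydrolase, and NR1H3 (0.345), the sterol receptor LXR-alpha. OSBPL5 was the 1 that fell, and 37% of all genes were called in that comparison.

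Of 10 genes of SREBP processing and INSIG turnover, none passed with 5 of the 6 extracts. With Glycyrrhizae 3 of the 10 were called, against 37% of all genes: ERLIN2 (0.42) and PAQR3 (0.51) rose and SPRING1 (-0.27) fell. Of 12 users of isoprenoids outside sterol synthesis, none passed except with Glycyrrhizae, where 3 of the 12 did, against 37% of all genes. DHDDS (0.28) rose and FNTB (-0.52), the farnesyltransferase subunit, and PDSS2 (-0.30) fell. With Ginseng and Poria, then, calls among these lists were on the fatty acid genes, plus 2 falls in the export list with Ginseng. There, 0.653% of all genes fell.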

How the data were processed

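RNA of A549 cells was sequenced with a directional kit as paired reads. Per the submitters' processing notes, FastQC 0.11.9, Trim Galore 0.6.5, STAR 2.7.3a and RSEM 1.3.3 were used with the hg38 (GRCh38) genome. Neither the annotation release nor the handling of strand is given in the sources used here. RSEM expected counts per gene, as the authors deposited them, fill 270 columns, of which 60 were used and 210, of other samples, were not. Of the values above 0, 76.0% were whole within 1e-09, and all were rounded. Symbols came from the identifiers matched to gene name tables and GENCODE 29.

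Genes were filtered with filterByExpr, scaled by TMM and fitted with 1 mean per group over 60 libraries in edgeR 4.0.16 (R 4.3.3), with 35 residual degrees of freedom and a common BCV (biological coefficient of variation) of 5.59%. The 22 comparisons were tested by glmQLFTest with Benjamini-Hochberg adjustment at 0.05, and standard errors are the log2 change over the square root of F. CPM values use TMM-scaled totals. Over 51 replicate pairs, chi-square per degree of freedom was 3.25 to 56.65 (genes of at least 5 CPM), so no pair was counted as 1 library. On simulated counts of 17360 genes, the Ginseng comparison recovered 24 of 50 genes changed 1.2-fold, and 49 of 50 changed 1.5-fold, with 11 of 17160 unchanged genes called. The Palmul-tang comparison recovered 10 and 47 of 50.

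Same-numbered libraries of Ginseng deviated together (correlations of 0.19 to 0.305 in 3 pairs). The numbers may thus pair them, a hint from the data and not the labels. The main fit used no pairing for any extract, and a replicate block was run only as an alternative. In the other extracts at least 1 pair was at 0.1 or below. Alternatives were DESeq2 1.42.0, RLE size factors, library totals, no filter, only the compared groups, a replicate block and each library left out.

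All members could be named. Values in every library were given for the 3 members of smallest adjusted p in each high against low or dose-change comparison that called any, and the 5 of the mean low dose. Up to 3 genes per related list were named. Members, lists and comparisons were chosen with earlier results of these data known.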

Additional observations from a re-analysis of the deposited data

Results flagged for a closer look

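The dose change of 17 members differed between Glycyrrhizae and Ginseng by a test of the difference itself, an interaction in edgeR with adjusted p under 0.05. As Glycyrrhizae minus Ginseng on the log2 scale, HMGCS1 was at -0.964 and ACAT2 at -0.874 at the entry, MVK at -0.406 and MVD at -0.338 among the mevalonate enzymes. IDI1 (-0.501), FDPS (-0.415) and GGPS1 (0.318) followed for the prenyl steps, and FDFT1 (-0.158), SQLE (-0.285) and LSS (-0.573) for squalene and lanosterol. After lanosterol these were NSDHL (-0.527), EBP (-0.509), TM7SF2 (-0.311) and LBR (-0.229). INSIG1 (0.347) and NPC1 (0.324) were more positive with Glycyrrhizae, and TMEM97 (-0.501) more negative.

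Between Poria and Atractylodis the same test called 6 members, each more positive with Poria: HMGCS1 (0.393), INSIG1 (0.377), SQLE (0.363), FDFT1 (0.337), FDPS (0.276) and TMEM97 (0.258). Of 12 fits with 1 library left out, the count of these calls ran from 4 to 8.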

How the results depend on the processing

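No call of a member changed direction under any alternative run, but many counts of called members moved. Counts over all genes are given here for DESeq2 only. For the other alternatives, whether members moved more than other genes is not shown. With library totals as scaling the count was 0 for Sibjeondaebo-tang, 5 for Poria and 7 for Ginseng at high against low dose. Against the vehicle it was 3 for Sibjeondaebo-tang, 8 for Palmul-tang and 11 for the mean low dose, and it was 0 for Poria minus Atractylodis. Without the filter on low counts it was 0 for Sibjeondaebo-tang, 6 for Poria and 1 for Atractylodis at high against low dose, and 4 for Poria against the vehicle. In a fit of only the compared groups it was 0 for Sibjeondaebo-tang, 1 for Palmul-tang and 5 for Ginseng, 5 for Sibjeondaebo-tang against the vehicle, and 1 for Poria minus Atractylodis. DESeq2 called 2 with Palmul-tang, 2 with Atractylodis, 1 at the medium dose of Glycyrrhizae, and 11 for Poria minus Atractylodis. Over all genes it called 432, 67, 149 and 43 in the same comparisons, where edgeR called 370, 37, 140 and 13. A 1.5-fold threshold left 0 members with Angelicae and 12 with Paeoniae. The cause of these moves was not tested.

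With a replicate block the counts were 1, 0, 14, 2, 18 and 17 for Sibjeondaebo-tang, Palmul-tang, Poria, Atractylodis, Glycyrrhizae and Ginseng at high against low dose, and 1 at the medium dose of Glycyrrhizae. For Ginseng, whose numbers may pair the libraries, the block called 17 and kept all 16. In Poria, too, every library correlated best with its own number (3 of 3), as a hint from the data.

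Leaving out 1 library at a time gave 0 to 1 for Sibjeondaebo-tang, 7 to 10 for Poria, 0 to 1 for Atractylodis, 15 to 19 for Glycyrrhizae and 10 to 14 for Ginseng. Against the vehicle it gave 5 to 8, 8 to 12, 4 to 8, 17 to 21, 18 to 21 and 15 to 17 for the 6 extracts in the order above, and 13 to 21 for the mean low dose. It gave 14 to 16 for Glycyrrhizae minus Ginseng and 4 to 8 for Poria minus Atractylodis. Of the 16 members that rose with Ginseng, 9 passed in all 6 of these fits. Changes near 1.2-fold are at the limit of what 3 libraries per dose can call.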
